A study of Mus musculus with 6 samples.

Results

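The 10 genes described here encode proteins of the contractile apparatus of smooth muscle: the actins Acta2 and Actg2, the tropomyosins Tpm1 and Tpm2, the actin-binding regulators Cnn1, Cnn2, Tagln and Cald1, and the myosin chains Myl9 and Myh11. They were chosen by their known function, with earlier results of these data known, and all 10 were among the 12023 genes of the count table. They were measured in cultured fibroblasts of the mammary fat pad. The donors were healthy females of the inbred strains BALB/c and C57BL/6, with 3 biological replicates of each. The mice were 8 to 12 weeks old, neither strain is labelled with an engineered allele or an agent, and the cells of both strains were selected magnetically, plated on collagen and cultured for 4 days. The sources used here give neither the target of the magnetic selection nor whether a replicate pooled animals, and primary cultures can hold other cell types of the fat pad. The measurement was a count of reads at the 3′ ends of polyadenylated RNA, given here as CPM, the count scaled to a common library total. Values were not divided by transcript length, since reads were counted from 3′ ends. Values of single libraries are given in the order of replicates 1, 2 and 3.

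In smooth muscle, myosin pulls on actin filaments when the regulatory light chain is phosphorylated, and tropomyosin, calponin, caldesmon and transgelin lie on the filament and tune this. Fibroblasts gain part of the same set when they become contractile myofibroblasts, most often on stiff culture surfaces or after TGF-beta, and alpha smooth muscle actin, the product of Acta2, is the usual mark of that state. Several of these genes are driven by serum response factor (SRF) and its cofactors, which bind a short element called the CArG box. In the mammary gland the same genes are also active in myoepithelial cells, pericytes and vascular smooth muscle. In RNA from a whole culture, fewer cells of a type and less RNA per cell cannot be told apart.

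Total counts were 1035485 to 4665896 per library, and 3 counts correspond to 0.612 to 2.90 CPM. The fibroblast markers Col1a2, a fibrillar collagen, and Vim, vimentin, the most abundant of their list, were at 597 to 5114 CPM and 801 to 4348 CPM. In C57BL/6 replicate 1 some others of the list were low, with Col3a1 at 20.6 CPM, Dcn at 33.6 CPM and Pdgfra at 4.58 CPM. Pdgfrb was at its highest there, at 343 CPM. Col1a1, Thy1 and Fbn1, at 218, 325 and 233 CPM there, were each lower in some other library. Lum is not analysed here. C57BL/6 replicate 1 stood apart from the other libraries. In it GC content and transcript length accounted for 50.2% of the variance of the deviations of log2 CPM from the gene means, against 4.87% to 21.0% in the other 5 libraries, and the strain differences of the 10 genes, and those of the other genes and lists of the pathway, are therefore given with and without it.

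Promoter sequences of 7 of the 10 genes were taken from RefSeq on GRCm38.p6, from 250 bases before to 50 bases after a gene's annotated start. Those of Actg2, Tagln and Myh11 were not used here. Of the sequences below, Cnn1 is the calponin of smooth muscle and Cnn2 its widely expressed relative, whose counts differed unequally between the strains, and Acta2 and Myl9 are shown as an actin and a myosin gene of the same set. They lie at chr9:22099003-22099302 (plus strand, Cnn1), chr10:79988350-79988649 (plus strand, Cnn2), chr19:34255324-34255623 (minus strand, Acta2) and chr2:156775214-156775513 (plus strand, Myl9). Each is written 5′ to 3′ along the gene, with capitals for a CArG box matched exactly or with 1 mismatch.
Cnn1: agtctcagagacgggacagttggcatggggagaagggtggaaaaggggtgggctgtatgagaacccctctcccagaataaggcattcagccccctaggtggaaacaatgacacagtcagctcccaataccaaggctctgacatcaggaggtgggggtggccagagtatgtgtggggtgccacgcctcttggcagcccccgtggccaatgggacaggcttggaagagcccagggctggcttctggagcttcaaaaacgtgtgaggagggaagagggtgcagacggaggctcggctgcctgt
Cnn2: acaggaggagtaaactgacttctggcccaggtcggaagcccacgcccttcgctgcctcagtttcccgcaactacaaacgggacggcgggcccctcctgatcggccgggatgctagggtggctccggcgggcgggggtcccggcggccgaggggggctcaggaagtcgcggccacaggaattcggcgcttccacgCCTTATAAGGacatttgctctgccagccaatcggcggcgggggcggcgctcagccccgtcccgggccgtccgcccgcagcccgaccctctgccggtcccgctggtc
Acta2: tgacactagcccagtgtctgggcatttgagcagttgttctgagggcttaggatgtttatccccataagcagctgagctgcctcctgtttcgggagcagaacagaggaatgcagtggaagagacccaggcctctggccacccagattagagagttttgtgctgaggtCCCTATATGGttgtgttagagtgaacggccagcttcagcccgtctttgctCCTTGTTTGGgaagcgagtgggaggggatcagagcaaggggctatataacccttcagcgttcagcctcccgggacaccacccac
Myl9: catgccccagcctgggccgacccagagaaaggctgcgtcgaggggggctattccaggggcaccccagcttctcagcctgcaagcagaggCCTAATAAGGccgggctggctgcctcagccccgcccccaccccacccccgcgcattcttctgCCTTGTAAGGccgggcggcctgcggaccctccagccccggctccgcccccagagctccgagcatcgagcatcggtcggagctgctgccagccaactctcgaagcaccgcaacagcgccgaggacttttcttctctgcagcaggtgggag

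An exact CArG box was present in the windows of Cnn2, beginning 56 bases before the start, and Myl9, beginning 161 bases before it. The search covered both strands, which give the same matches because the motif is its own reverse complement. Over all 32851 promoters of that length in the table, 1.63% held an exact box and 21.1% a box with up to 1 mismatch. Acta2 held 2 boxes with 1 mismatch each, CCCTATATGG and CCTTGTTTGG, beginning 84 and 34 bases before the start. The Tpm1 window held CCATATATAG and CCAAAAAAGT, also with 1 mismatch each. Neither the Cnn1 nor the Tpm2 window held a match at that limit, and of the 2 windows of Cald1 the upstream one held GCTTTTTAGG. A match of letters does not show a bound site, and SRF elements of these genes can lie outside the window.

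Most of the contractile genes had a lower mean level in the BALB/c cultures, with the greatest differences of the 10 in Actg2 and Cnn1 when all 6 libraries were fitted in edgeR, while Tpm2 and Cald1 did not share that direction. No difference passed edgeR's adjusted threshold. The 10 genes together took 0.895%, 0.782% and 0.870% of all counts in the BALB/c libraries, and 1.32%, 1.22% and 1.03% in those of C57BL/6. Exact 95% counting intervals of these shares were 0.772% to 0.793% for the lowest library and 1.30% to 1.34% for the highest. The strains did not overlap in this share, most of which came from Tpm1, Tagln and Cnn2. Of the 10 genes, 8 had a log2 difference, BALB/c minus C57BL/6, below 0, against 48.9% of the 8752 genes tested, and their median was -0.61 against 0.01. In 4 of the 10 every BALB/c library lay below every C57BL/6 library, as in 6.22% of all tested genes. Those 4 were Actg2, Cnn1, Tpm1 and Cnn2.

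The quasi-likelihood test of edgeR, adjusted by Benjamini-Hochberg over all tested genes, called 0 of the 10 at an adjusted p of 0.05, where 0.206% of all genes passed. At an unadjusted p under 0.05 edgeR had 4 of the 10, Actg2, Cnn1, Myl9 and Tagln, all lower in BALB/c. Of all genes 3.86% had such a p in either direction and 2.54% were lower. DESeq2 called 2 of the 10, Cnn1 and Actg2, both lower, where it called 0.658% of all genes, 0.424% as lower. The voom fit of limma called 0 of the 10, also with library quality weights, where 0.651% of all genes passed. Without C57BL/6 replicate 1 all 10 log2 differences were below 0, as in 49.7% of 9065 genes, with a median of -0.68 against 0.00 over all genes. There 5 of the 10 had an unadjusted p under 0.05 and were lower, against 3.12% of all genes (5.01% in either direction), and 5 did not overlap and were lower, against 10.1%. In that fit 0 of the 10 passed the adjusted threshold, against 0.276% of all genes.

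**Figure D1:**
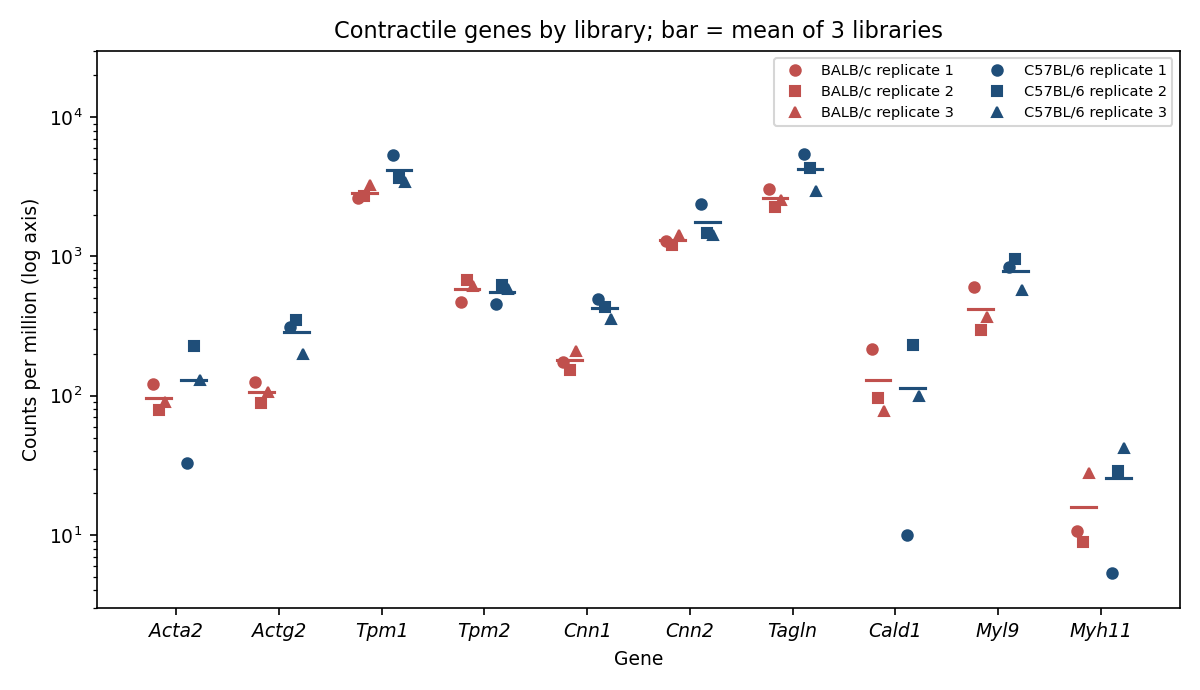
Each point is 1 library and each bar the mean of 3, with CPM on a log axis, BALB/c in red and C57BL/6 in blue. The blue points of Actg2 and Cnn1 all lie above the red ones, and in Acta2, Cald1 and Myh11 the blue circle, C57BL/6 replicate 1, lies lowest.

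Of the actins, Actg2 did not overlap between the strains, and Acta2 varied most within C57BL/6. Actg2, the gamma actin of enteric and other smooth muscle, had 126, 88.4 and 106 CPM in the BALB/c libraries against 314, 349 and 199 CPM in the C57BL/6 libraries. All C57BL/6 libraries lay above all BALB/c libraries. BALB/c averaged 107 ± 18.8 CPM against 287 ± 78.2 CPM (SD, n = 3 each), and the fitted level was 2.68-fold higher in C57BL/6. The log2 difference was -1.42 ± 0.29 (SE; edgeR adjusted p = 0.278, DESeq2 adjusted p = 0.0161), and -1.36 ± 0.28 without C57BL/6 replicate 1 (edgeR adjusted p = 0.240).

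Acta2 had 121, 79.5 and 90.0 CPM in the BALB/c libraries against 32.8, 227 and 130 CPM in the C57BL/6 libraries. C57BL/6 thus held both the highest and the lowest library, and the strains overlapped. The low value of C57BL/6 replicate 1 rests on 43 counts, with an exact 95% counting interval of 23.8 to 44.2 CPM. The log2 difference of Acta2 was -0.43 ± 0.60 with all libraries (edgeR adjusted p = 0.954), -0.89 ± 0.29 without C57BL/6 replicate 1 (edgeR adjusted p = 0.761), where the strains no longer overlapped, and 0.22 without C57BL/6 replicate 2.

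Neither tropomyosin gene passed the test. Tropomyosins form a coiled coil along the actin filament, and Tpm1 and Tpm2 each give muscle and non-muscle forms by splicing, which a 3′ count need not separate. Tpm1 had 2609, 2725 and 3269 CPM in the BALB/c libraries against 5382, 3652 and 3443 CPM in the C57BL/6 libraries. The groups did not overlap, but the highest BALB/c and the lowest C57BL/6 library lay close together. The log2 difference of Tpm1 was -0.54 ± 0.25 (edgeR adjusted p = 0.954) and -0.31 ± 0.18 without C57BL/6 replicate 1.

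Tpm2 had 474, 681 and 609 CPM in the BALB/c libraries against 455, 623 and 582 CPM in the C57BL/6 libraries. The ranges of the strains overlapped almost fully. Its log2 difference was 0.09 ± 0.25 (edgeR adjusted p = 0.967) and turned to -0.04 ± 0.21 without C57BL/6 replicate 1.

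Of the regulators on the actin filament, Cnn1 was lower in every BALB/c library but short of the adjusted threshold in edgeR. Cnn1, basic calponin, inhibits the actin-activated ATPase of myosin and is a late marker of smooth muscle differentiation. It had 174, 154 and 211 CPM in the BALB/c libraries against 496, 432 and 355 CPM in the C57BL/6 libraries. The groups did not overlap. BALB/c averaged 179.8 ± 28.8 CPM against 428 ± 70.3 CPM (SD, n = 3 each), and the fitted level was 2.38-fold higher in C57BL/6. The log2 difference was -1.25 ± 0.25 (edgeR adjusted p = 0.239, DESeq2 adjusted p = 0.00928), and -1.14 ± 0.20 without C57BL/6 replicate 1 (edgeR adjusted p = 0.141).

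Cnn2, the calponin of many non-muscle cells, had 1302, 1200.4 and 1424.5 CPM in the BALB/c libraries against 2397, 1472 and 1427 CPM in the C57BL/6 libraries. C57BL/6 replicate 1 stood clear of the BALB/c libraries, while C57BL/6 replicate 3 exceeded BALB/c replicate 3 by less than the counting error. The log2 difference was -0.43 ± 0.27 (edgeR adjusted p = 0.954) and -0.16 ± 0.17 without C57BL/6 replicate 1, where the strains overlapped after rescaling.

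Tagln, transgelin or SM22-alpha, an early actin-bundling marker of the smooth muscle lineage, had 3068, 2268 and 2537 CPM in the BALB/c libraries against 5417, 4335 and 2959 CPM in the C57BL/6 libraries. BALB/c replicate 1 lay just above C57BL/6 replicate 3, so the strains overlapped. The log2 difference was -0.69 ± 0.28 (edgeR adjusted p = 0.954) and -0.48 ± 0.22 without C57BL/6 replicate 1. Exons of Tagln overlap exons of Pcsk7 and Gm48529 on the opposite strand, and the annotated ends of Tagln and Pcsk7 share 108 nt. The sources used here do not say whether counting used the strand, so reads of these genes may not be separable. Pcsk7, a proprotein convertase, was at 40.6 to 68.0 CPM, far below Tagln.

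Cald1, caldesmon, which binds actin, tropomyosin and calmodulin, had 217, 97.0 and 77.4 CPM in the BALB/c libraries against 9.93, 231 and 98.8 CPM in the C57BL/6 libraries. BALB/c replicate 1 and C57BL/6 replicate 2 were high, and C57BL/6 replicate 1 was far below the rest, with 13 counts and a 95% counting interval of 5.29 to 16.98 CPM. The log2 difference of 0.21 ± 0.90 (edgeR adjusted p = 0.976) became -0.33 ± 0.53 without C57BL/6 replicate 1 and 1.21 without C57BL/6 replicate 2. The 2 libraries with high Cald1 also had the lowest summed levels of epithelial markers given below. With the log2 of these summed markers as a covariate, the log2 difference of Cald1 was 0.15 ± 0.58 (edgeR adjusted p = 0.986). The cause of the high values was not tested.

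The myosin genes both had lower means in BALB/c, with overlapping libraries. Myl9, the regulatory light chain of smooth muscle and non-muscle myosin that is phosphorylated to start contraction, had 602, 296 and 367 CPM in the BALB/c libraries against 845, 953 and 579 CPM in the C57BL/6 libraries. C57BL/6 replicate 3 lay just below BALB/c replicate 1, and the other libraries were separated. BALB/c averaged 422 ± 160.4 CPM against 792 ± 192 CPM (SD, n = 3 each). The fitted log2 difference was -0.91 ± 0.34 (edgeR adjusted p = 0.954), and -0.87 ± 0.34 without C57BL/6 replicate 1.

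Myh11, the myosin heavy chain that most narrowly marks smooth muscle, had the fewest counts of the 10 genes. It had 10.7, 8.95 and 28.1 CPM in the BALB/c libraries against 5.35, 28.9 and 42.2 CPM in the C57BL/6 libraries. The lowest and the highest library were both C57BL/6, and the lowest rests on 7 counts, with a 95% counting interval of 2.15 to 11.02 CPM. The log2 difference was -0.76 ± 0.76 (edgeR adjusted p = 0.954) and -1.27 ± 0.51 without C57BL/6 replicate 1 (edgeR adjusted p = 0.963), and -0.15 ± 0.86 without C57BL/6 replicate 3.

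**Figure D2:**
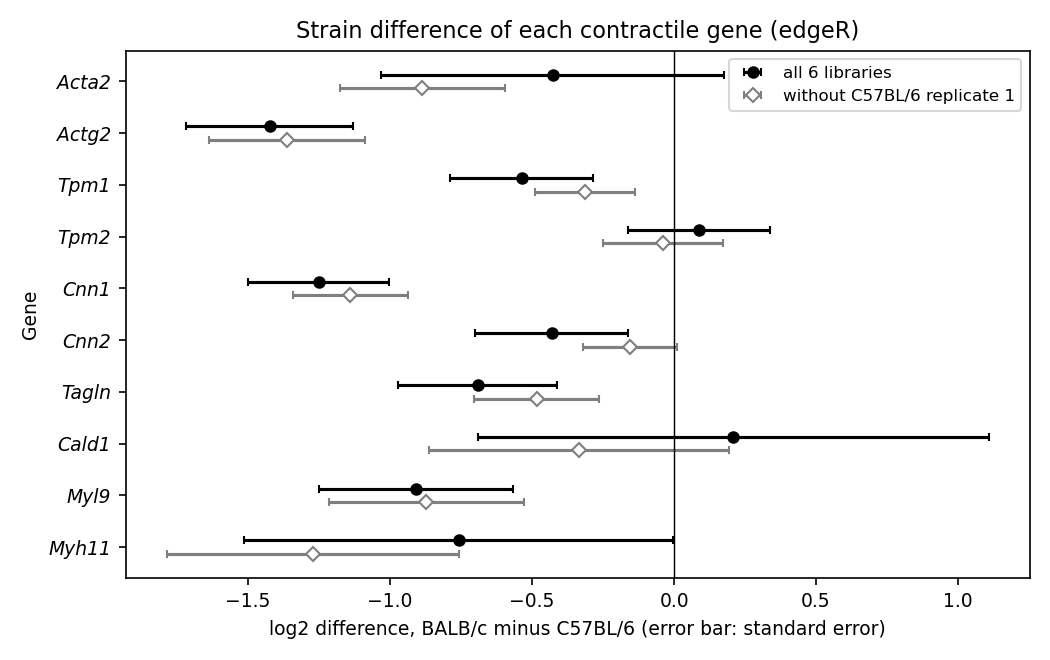
Points are log2 differences, BALB/c minus C57BL/6, with standard errors from edgeR, for all 6 libraries (filled) and without C57BL/6 replicate 1 (open). Actg2 and Cnn1 lie below -1 in both fits, and Tpm2 and Cald1 change side.

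Ratios within a library, which do not depend on how libraries are scaled, showed how unequally related genes moved. The log2 ratio of Cnn1 to Cnn2 had values of -2.90, -2.95 and -2.75 in the BALB/c libraries against -2.27, -1.77 and -2.003 in the C57BL/6 libraries. The smooth muscle calponin thus made up a smaller part relative to Cnn2 in every BALB/c library, with a difference of -0.85 between the strain means. The log2 ratio of Actg2 to Acta2 had values of 0.06, 0.15 and 0.24 in the BALB/c libraries against 3.22, 0.61 and 0.61 in the C57BL/6 libraries. Here too all C57BL/6 libraries were higher, but the difference of -1.33 shrank to -0.46 without C57BL/6 replicate 1.

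The log2 ratio of Tpm2 to Tpm1 had values of -2.46, -1.998 and -2.42 in the BALB/c libraries against -3.56, -2.55 and -2.56 in the C57BL/6 libraries. BALB/c was higher by 0.60, and by 0.26 without C57BL/6 replicate 1. For each of these 3 ratios the exact two-sided permutation test over libraries gave p = 0.1, also after Benjamini-Hochberg adjustment over the 3 ratios, which is the smallest p that 3 libraries against 3 allow.

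**Figure D3:**
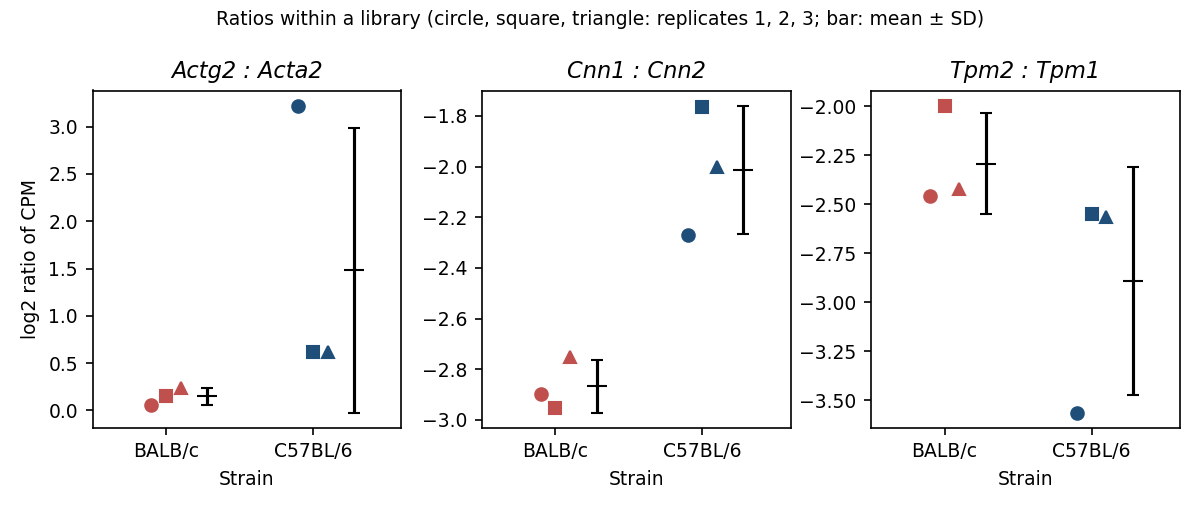
Each panel gives the log2 ratio of CPM of a pair of genes in each library (circle, square and triangle for replicates 1, 2 and 3), with the mean and SD of each strain beside the points. The strains do not overlap in any panel, and C57BL/6 replicate 1 lies far from replicates 2 and 3 for Actg2 to Acta2 and for Tpm2 to Tpm1.

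The genes did not move as 1 block across libraries. In C57BL/6 replicate 1, 4 of the 10 were at their highest level of the 6 libraries (Tpm1, Cnn1, Cnn2 and Tagln) and another 4 at their lowest (Acta2, Tpm2, Cald1 and Myh11). C57BL/6 replicate 2 had the highest level of 4 genes and the lowest of none, and BALB/c replicate 2 had the lowest level of 5 genes. Relative to the mean of the other C57BL/6 libraries, C57BL/6 replicate 1 differed on the log2 scale by -3.81 in Cald1, -2.51 in Myh11 and -2.35 in Acta2, and by 0.60 in Tagln and 0.73 in Cnn2.

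**Figure D4:**
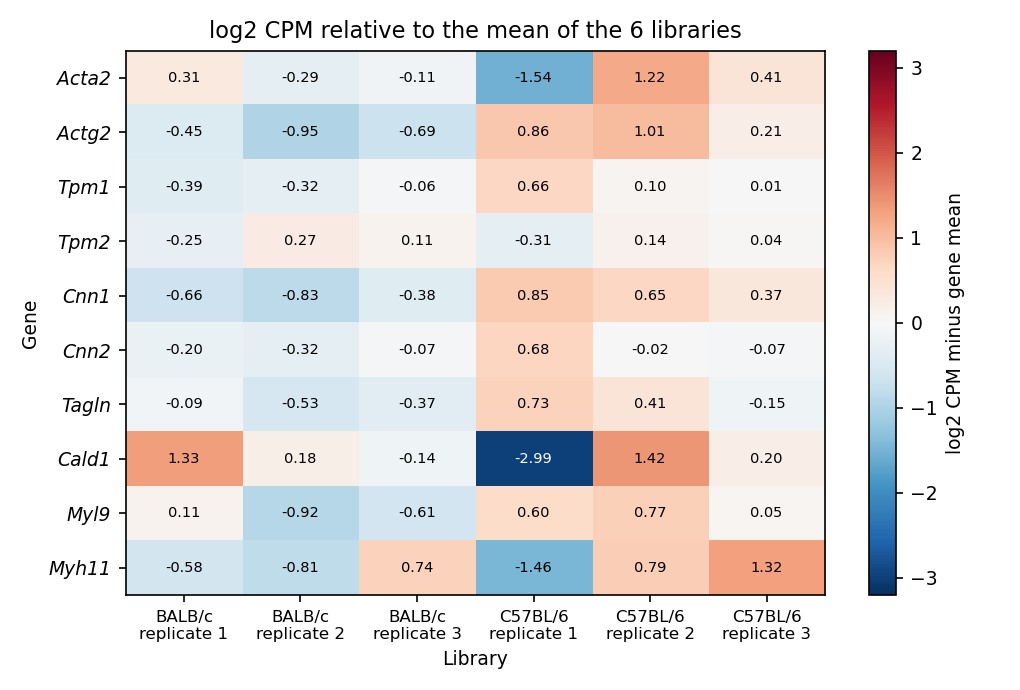
Colours and numbers are log2 CPM of each gene minus its mean over the 6 libraries, shown by library. Actg2 and Cnn1 are negative in all BALB/c and positive in all C57BL/6 libraries, and the column of C57BL/6 replicate 1 holds both the deepest blue and several red cells.

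In Acta2 and Cald1, but not in the set as a whole, the base composition of the transcripts differed along with these deviations. Acta2 and Cald1 had the lowest GC content over the last 500 nt of the transcript, 35.8% and 37.0%, where the other 8 genes had 43.0% to 57%. Over all tested genes with such a GC content under 40%, the median difference between C57BL/6 replicate 1 and the mean of the other C57BL/6 libraries was -1.62 on the log2 scale, over 2266 genes. It was -0.16 over 3669 genes of 40% to 50% and 0.70 over 2714 genes of 50% or more. Myh11, at 47.2%, lay below the median of genes of 40% to 50%. A fit on GC content and length gave it a deviation of 0.15 in C57BL/6 replicate 1, against -1.17 for Acta2 and -1.37 for Cald1. For Tpm1, Cnn1, Cnn2, Tagln and Tpm2 the fit gave -0.48, -0.31, -0.18, -0.41 and 0.55. Their differences from the other C57BL/6 libraries had the opposite sign, at 0.60, 0.34, 0.73, 0.60 and -0.40. For Actg2 and Myl9 the sign was shared, with 0.27 and 0.69 fitted and differences of 0.25 and 0.19. With an offset for GC content and length, a setting chosen after the data were seen, the log2 differences were -0.61 ± 0.34 for Acta2, 0.12 ± 0.61 for Cald1, -1.34 ± 0.28 for Actg2 and -1.39 ± 0.27 for Cnn1.

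**Figure D5:**
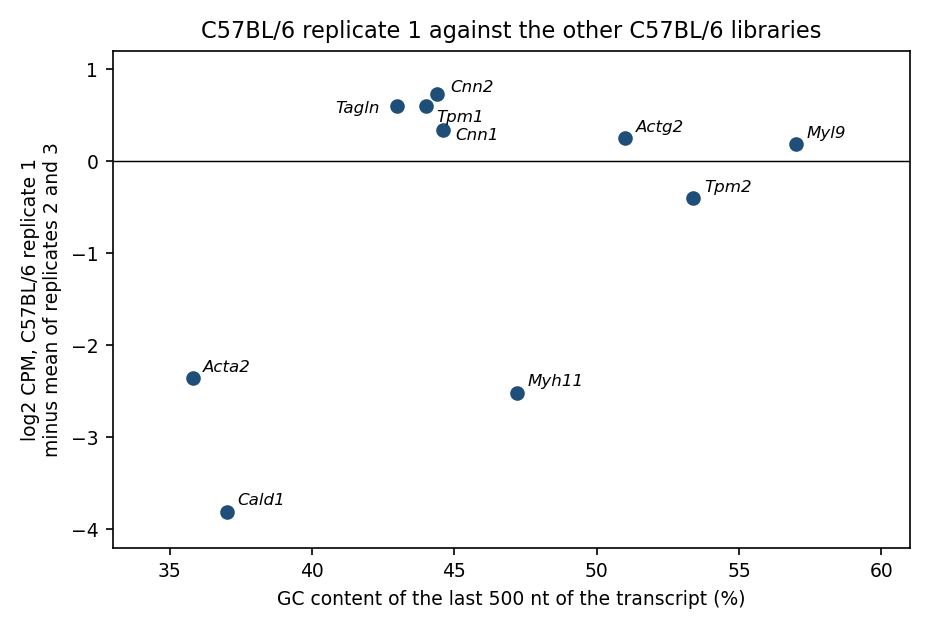
Each point is 1 of the 10 genes, with the GC content of the last 500 nt of its transcript on the x axis and the log2 CPM of C57BL/6 replicate 1 minus the mean of replicates 2 and 3 on the y axis. Cald1, Acta2 and Myh11 lie between -3.81 and -2.35, and the other 7 genes between -0.40 and 0.73.

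Other cell types of the fat pad use these genes, and their markers varied between the libraries. Basal epithelial markers, keratins and laminin chains among them, summed to 718, 3811 and 3087 CPM in the BALB/c libraries against 5641, 896 and 3268 CPM in the C57BL/6 libraries, with 10 of 15 listed genes tested. Most of this sum came from Krt17, Sfn and Krt14, and the strains overlapped widely in it. Among the untested genes Oxtr had 20 counts and Col17a1 had 53 counts over all 6 libraries, and Trp63 is not analysed here. The highest sum was in C57BL/6 replicate 1, which had the highest Cnn1 and the second highest Actg2, and C57BL/6 replicate 2, with the highest Actg2 and the second highest Cnn1, had the second lowest sum. Luminal markers, 10 of 11 tested, summed to 1640 to 9860 CPM in BALB/c libraries against 2907 to 15951 CPM. Of these 10, 8 lay below 0 on the log2 scale, BALB/c minus C57BL/6. The luminal median was -0.60, near the -0.61 of the contractile genes. Without C57BL/6 replicate 1 these medians were 0.11 and -0.68. Wfdc18 was lower in every BALB/c library, at -2.01 ± 0.50 and an unadjusted edgeR p of 0.0044. No luminal gene passed edgeR's adjusted threshold, and DESeq2 called 1 of the 10. With the log2 of the basal and luminal sums together as a covariate, the log2 difference was -1.50 ± 0.27 for Actg2, -1.24 ± 0.24 for Cnn1 and -1.09 ± 0.28 for Myl9. In that fit 0 of the 10 contractile genes passed in edgeR, where 25 of all 8752 tested genes passed.

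Markers of pericytes and mural cells, 4 of 11 tested, summed to 207 to 281 CPM in BALB/c libraries against 249 to 315 CPM, most of it from Cspg4 and Mcam. Of these 4, 3 had a log2 difference below 0, with a median of -0.43, and Ndufa4l2 was lower in every BALB/c library, with a log2 difference of -1.84 ± 0.63, at an unadjusted edgeR p under 0.05 but not past the adjusted threshold. Rgs5, a defining pericyte gene, had 36 counts and Kcnj8 had 8 counts over all 6 libraries, and Abcc9 and Higd1b are not analysed here. Endothelial markers, 3 of 6 tested, summed to 22.0 to 52.3 CPM in BALB/c libraries against 32.0 to 45.8 CPM. Macrophage markers, 6 of 8 tested, summed to 510 to 819 CPM in BALB/c libraries against 734 to 1340 CPM. All 6 had a log2 difference below 0, as in 48.9% of all genes. Of these, 3 (Cd68, Fcer1g and C1qa) were lower at an unadjusted edgeR p under 0.05, against 2.54% of all genes. The macrophage median was -0.91, against -0.61 for the contractile genes. Without C57BL/6 replicate 1 these medians were -0.60 and -0.68, and 2 macrophage markers had such a p, against 5.01% of all genes in either direction. Fibroblast markers, 9 of 10 tested, summed to 4258 to 11225 CPM in BALB/c libraries against 2575 to 12039 CPM, with the lowest sum in C57BL/6 replicate 1. Their part in the differences of the contractile genes was not tested.

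The non-muscle counterparts of these proteins had a median log2 difference of 0.14, opposite in sign to that of the contractile genes, and 8 of 12 were above 0. Actb, the cytoplasmic beta actin, averaged 10841 ± 841 CPM in BALB/c against 15303 ± 8063 CPM, and Myl12a, a non-muscle regulatory light chain, 2666 ± 256 CPM against 2610 ± 229 CPM (SD, n = 3 each). Their log2 differences were -0.50 ± 0.38 and 0.03 ± 0.21, and -0.02 ± 0.24 and -0.04 ± 0.17 without C57BL/6 replicate 1. In edgeR 0 of the 12 passed by adjusted or unadjusted p, and DESeq2 and limma-voom called 0. Without C57BL/6 replicate 1 the median was -0.04, and edgeR had 0 genes of this list by adjusted or unadjusted p.

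Of the other smooth muscle genes 13 of 14 tested had a log2 difference below 0, with a median log2 difference of -0.57, which was -0.34 without C57BL/6 replicate 1. Hspb1, a small heat shock protein that binds actin, had a log2 difference of -0.37 ± 0.49, and Palld, palladin, an actin cross-linker, -0.04 ± 0.56. Without C57BL/6 replicate 1 these were 0.07 ± 0.48 and -0.47 ± 0.33. In edgeR 0 of the 14 passed, 2 had an unadjusted p under 0.05, and DESeq2 and limma-voom called 0. Without C57BL/6 replicate 1 edgeR had 3 genes of this list at such a p, against 5.01% of all genes, and 0 passed. Myocd, the smooth muscle cofactor of SRF, is not analysed here.

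Genes that control contraction and SRF were given as 3 lists. Of 18 tested genes of contraction control, 11 were below 0 and 7 above, with a median of -0.30, which was -0.09 without C57BL/6 replicate 1. Ilk, integrin-linked kinase, averaged 558 ± 19.3 CPM in BALB/c against 659 ± 83.7 CPM (SD, n = 3 each), with a log2 difference of -0.24 ± 0.22, and -0.14 ± 0.16 without C57BL/6 replicate 1. In edgeR 0 of the 18 passed and 1 had an unadjusted p under 0.05, and DESeq2 and limma-voom called 0. Without C57BL/6 replicate 1 edgeR had 2 genes of this list at such a p, against 5.01% of all genes, and 0 passed.

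Among 17 tested genes of SRF and its cofactors the median was -0.09, with 11 below 0, and -0.19 without C57BL/6 replicate 1. Csrp1 and Csrp2, cysteine-rich LIM proteins of smooth muscle, had log2 differences of -0.68 ± 0.34 and -0.33 ± 0.41, and of -0.28 ± 0.22 and -0.29 ± 0.44 without that library. Among 16 actin and adhesion targets of SRF the median was -0.14, with 11 below 0, and -0.20 without that library. Actn1, an alpha-actinin, had a log2 difference of -0.64 ± 0.29 and Cfl1, cofilin, which severs actin filaments, 0.04 ± 0.20. Without that library they were -0.34 ± 0.19 and 0.13 ± 0.16. With all 6 libraries edgeR had 0 genes of both lists by adjusted or unadjusted p, and DESeq2 and limma-voom called 0. Without C57BL/6 replicate 1 edgeR had 2 of the actin and adhesion targets at an unadjusted p under 0.05, against 5.01% of all genes. It had 0 of SRF and its cofactors, and 0 of either list passed the adjusted threshold.

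The genes whose profile over the 6 libraries was most like the mean of the 10, among 4504 tested genes averaging 5 or more in log2 CPM, were Lrig3, Aak1, Khdrbs3, Arfgap3 and Pop1. Pearson's r with that mean was 0.985, 0.981, 0.975, 0.968 and 0.961 in that order, as a description over 6 libraries that share their scaling and depth. Their log2 differences ran from -0.95 for Lrig3 to -0.31 for Aak1, and none of the 5 passed in edgeR (adjusted p = 0.954 each).

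On GRCm38, the assembly called mm10 in the submitters' processing notes, 3 of the 10 genes lie on chromosome 9. These are Cnn1 at 22099216 to 22109630, Tagln at 45929619 to 45936058 and Tpm1 at 67022590 to 67049406. Actg2 lies on chromosome 6 at 83512905 to 83536265 and Cald1 on the same chromosome at 34598500 to 34775473. Acta2 lies on chromosome 19 at 34241090 to 34255590, Cnn2 on chromosome 10 at 79988584 to 79996062, and Myl9 on chromosome 2 at 156775420 to 156781658. Tpm2 is on chromosome 4 at 43514711 to 43523765 and Myh11 on chromosome 16 at 14194535 to 14291372. Apart from Tagln, none of the 10 had a near-identical 3′ end in another annotated gene at the limits used or shared exon sequence with another gene.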

How the data were processed

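The tools named in the submitters' processing notes are HTSeq, STAR 2.4.2a and bcl2fastq, with mm10 as the genome build. The authors deposited raw counts by gene symbol, 1 column per library. Their settings, use of strand and handling of molecular identifiers are not stated in these sources. BALB/c reads that differ from the reference genome may align less well. Each gene reaches 6 counts or more in some library. Columns were matched to samples by library name and grouped by strain.

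The main fit used edgeR 4.0.16 (R 4.3.3) on counts of 8752 genes kept by filterByExpr, with TMM factors of 0.866 to 1.06, robust quasi-likelihood, strain as the only term and two-sided p-values adjusted by Benjamini-Hochberg at 0.05. Replicates varied with a biological coefficient of variation of 41.1%. Standard errors were taken as the log2 difference over the root of the F statistic, and log2 CPM used a prior count of 2. DESeq2 1.42.0, voom from limma 3.58.1, other scalings and filters, covariates and omitted libraries were alternatives. The fits were tested on simulated data. Within a strain, library pairs differed far beyond sampling noise (chi-square over degrees of freedom 10.8 to 57.2, 5541 genes). P-values measure the spread between these samples, which may be partly technical. Counting intervals are exact at 95% and cover counting error only.

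The 10 genes, the other lists and the tests were chosen with earlier results of these data known. From each other gene list the text names the genes past the threshold, or otherwise the 2 with the highest mean log2 CPM (1 such gene of contraction control is not reported here); cell type marker lists are given as sums, and the genes named from them, like Pcsk7 and Acta1, were chosen after their values were seen. Genes were placed with GENCODE vM21. Near-identical 3′ ends were searched with BLAST+ 2.17.0 using the last 500 nt of the longest protein-coding transcript, at 95% identity over 60 nt.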

Additional observations from a re-analysis of the deposited data

How the results depend on the processing

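Of 160 log2 differences of the 10 genes under 16 alternatives, 152 kept their direction and their side of the threshold and 6 reversed. Cald1 was -0.017 with library quality weights, -0.38 without BALB/c replicate 1 and -0.33 without C57BL/6 replicate 1. Tpm2 was -0.03 without BALB/c replicate 2 and -0.040 without C57BL/6 replicate 1, and Acta2 was 0.22 without C57BL/6 replicate 2. The cause was not tested. Without 1 library Acta2 ranged from -0.89 to 0.22, Tpm2 from -0.040 to 0.22 and Cald1 from -0.38 to 1.21. Over all alternatives Actg2 ranged from -1.65 to -1.10 and Cnn1 from -1.39 to -1.01, with adjusted p from 0.0161 and 0.00928 in DESeq2 to 0.997 with the replicate block. DESeq2 called 2 of the 10 genes, and the other 15 alternatives 0, the leave-one-out fits (0 to 0) included. Among all genes edgeR's 18 calls (6 higher, 12 lower) changed to 11 (5 and 6) when only library totals scaled the counts, 76 with DESeq2, 3 with limma-voom, 57 with library quality weights and 31 (15 and 16) with the GC and length offset. Leaving out 1 library gave 0 to 25 calls in edgeR: 4, 0 and 0 without BALB/c replicates 1, 2 and 3, and 25, 5 and 0 without C57BL/6 replicates 1, 2 and 3. The 3 fits with 0 calls had 205, 226 and 261 genes at an unadjusted p under 0.05.

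The labels do not say whether replicates of the strains that share a number were processed together, and the main fit did not pair them. Deviations of same-numbered libraries had correlations across genes of -0.42, -0.40 and -0.08. Pairs of unlike number ranged from -0.33 to 0.58, with the highest between BALB/c replicate 1 and C57BL/6 replicate 2. With the replicate block edgeR called 0 genes, with 158 at an unadjusted p under 0.05, and the log2 ratio differences were -1.33, -0.85 and 0.60 for Actg2 to Acta2, Cnn1 to Cnn2 and Tpm2 to Tpm1. Without 1 library these ratios ranged from -1.77 to -0.46, -0.98 to -0.73 and 0.26 to 0.77. Depth limits Myh11 most, with 7 to 207 counts per library.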

Other observations

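Acta1, the actin of skeletal muscle and no member of the 10 genes, was singled out after its values were seen. Its level was 105, 236 and 225 CPM in the BALB/c libraries, in replicate order, against 1487, 650.3 and 906 CPM in the C57BL/6 libraries. Every C57BL/6 library lay above every BALB/c library, with a log2 difference, BALB/c minus C57BL/6, of -2.42 ± 0.44 (edgeR adjusted p = 0.187, DESeq2 adjusted p = 1.5e-04), and -2.05 ± 0.37 without C57BL/6 replicate 1 (edgeR adjusted p = 0.177). Of the other skeletal muscle markers tested, Tnnt3, a troponin, was at 3.91 to 14.5 CPM and Mylpf, a fast light chain, at 28.1 to 104.7 CPM, both highest in C57BL/6 replicate 1. Their log2 differences were -0.39 ± 0.63 and -0.60 ± 0.48 (edgeR adjusted p = 0.954 each), and Ckm and Myh4 are not analysed here.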
